A study of Nomascus leucogenys with 9 samples.

Results

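The chemokines and cytokines that virus-transformed B cells are known to secrete were examined in lymphoblastoid cell lines from 9 northern white-cheeked gibbons (Nomascus leucogenys). The set was a fixed list of 10 genes, given by human Ensembl identifier: CCL3, CCL4, CCL5, CCL17, CCL22, CXCL10, IL10, IL6, TNF and EBI3. Of these, 6 matched a row among the 15356 rows of the deposited table, namely CCL17 (ENSG00000102970), CCL22 (ENSG00000102962), CXCL10 (ENSG00000169245), IL10 (ENSG00000136634), IL6 (ENSG00000136244) and EBI3 (ENSG00000105246). The identifiers of CCL3 (ENSG00000277632), CCL4 (ENSG00000275302), CCL5 (ENSG00000271503) and TNF (ENSG00000232810) matched no row, and these 4 genes were not analysed here. All 6 matched genes passed the filter on low values, which kept 12590 rows whose mean reached 1 ppm (parts per 1000000 of the sum of a line's linear values).

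The study concerned LAVA, a retrotransposon of gibbons, and its use by the host genome. Lymphoblastoid lines are B lymphocytes immortalised in culture with Epstein-Barr virus (EBV), and each line, which carried the name of its animal, came from a different gibbon. The labels gave no age, treatment or contrast, so the lines formed 1 group of 9 with 1 library each. They are named Asia, Nancy, Vok, Khao, Bobby, China, Ricky, Phyllis and Melouprey. Animal, culture, transformation event and library coincided in each line and cannot be told apart. The labelled cell type was not checked against B cell markers, because no table used here paired the identifiers with symbols. For the same reason the receptors and partners of these genes were not analysed here.

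Chemokines are small secreted proteins that attract cells bearing their receptors, and B cells infected with EBV are known for secreting several of them. The viral membrane protein LMP1 mimics an activated CD40 receptor and switches on NF-kB, a transcription factor that drives many chemokine and cytokine genes. CCL17 and CCL22 both bind the receptor CCR4, CXCL10 is an interferon-induced ligand of CXCR3, and IL10 and IL6 are cytokines that act on B cells themselves. EBI3, named for its induction by EBV in B cells, is the secreted subunit shared by the cytokines IL-27 and IL-35.

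The deposited levels were treated as log2 units. The base of the logarithm is not given in the sources used here, and every fold below assumes base 2, in which a difference of 1 unit is a 2-fold difference. Whether the levels were divided by gene length is not given either, so they were compared between lines and not between genes. The authors' scaling brought the columns to nearly equal linear totals (13728358 to 14059842), and sequencing depth is unknown. Asia stood apart from the other lines over the whole table: its values strayed from the medians of their rows with an SD of 0.53 log2 units, against 0.22 to 0.42 in the other 8 lines. Spans and correlations are therefore also given without it. In these bulk cultures, more producing cells and more RNA per cell cannot be told apart.

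The measured chemokine and cytokine genes differed widely between lines. All 6 spanned at least 2-fold from the lowest to the highest line, as did 26.4% of all kept rows. CCL17, CCL22, CXCL10, IL6 and EBI3 (5 of the 6) spanned at least 4-fold, beside 6.18% of kept rows. The median span of the 6 genes was 4.50-fold, and that of all kept rows was 1.60-fold. IL10 spanned 2.44-fold. The SD of each gene was also set beside the 500 kept rows nearest to it in mean level: it exceeded 94.0% of them for IL10, 96.8% for CXCL10, 97.2% for IL6, 97.4% for CCL17, 98.0% for CCL22 and 98.8% for EBI3. Without Asia these shares were 96.2% for IL10, 74.0% for CXCL10, 87.6% for IL6, 92.0% for CCL17, 98.0% for CCL22 and 97.6% for EBI3. The genes had been listed with earlier results of these data known, so these shares are a description and not a test.

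**Figure D1:**
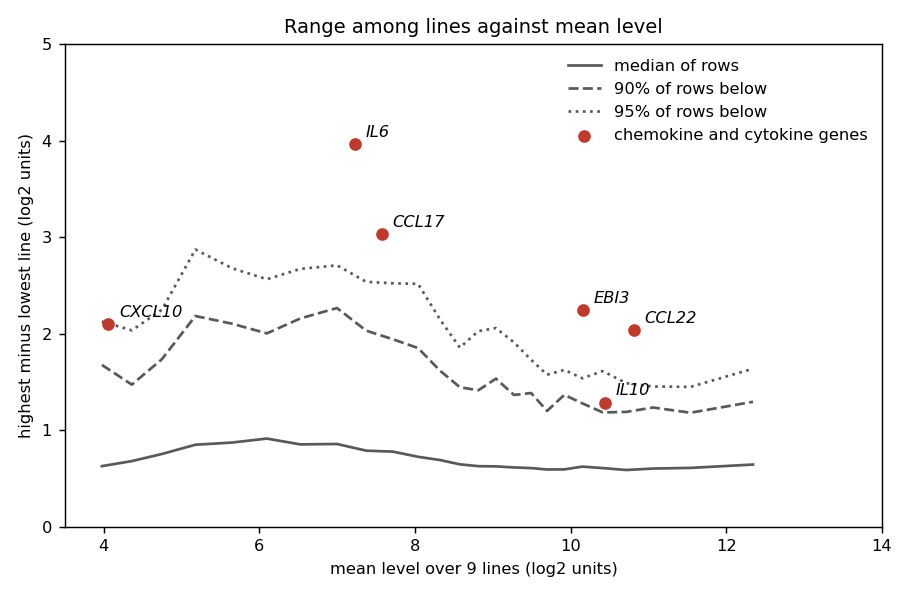
Range among the 9 lines (highest minus lowest line, log2 units) against mean level (log2 units) for the 6 measured genes (red points), with the median, 90% and 95% levels of all kept rows in bins of 500 rows ordered by mean level (grey lines). IL6 at 3.96 and CCL17 at 3.03 have the widest ranges, and IL10 at 1.29 has the narrowest.

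CCL17, a chemokine that attracts CCR4-bearing T cells, was highest in Asia, at 9.62 log2 units. It stood at 8.13 in Melouprey, 8.09 in Nancy, 7.95 in Phyllis and 7.23 in Bobby, and at 6.87 in China, 6.85 in Ricky, 6.83 in Khao and 6.59 in Vok. Asia was thus 2.80-fold above the next line, and Melouprey, Nancy and Phyllis lay close together above the remaining 5 lines. The mean was 7.57 ± 0.97 (SD, n = 9), and the highest line was 8.19-fold above the lowest. Without Asia the span was 2.92-fold.

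CCL22, the other CCR4 ligand, had a different leading line. Its level was 12.04 log2 units in Nancy and 11.58 in Asia, followed by 10.98 in Melouprey and 10.73 in Vok. The other lines had 10.59 (China), 10.53 (Bobby), 10.50 (Ricky), 10.33 (Khao) and 9.9997 (Phyllis). Nancy and Asia were therefore 2.72-fold and 1.99-fold above the median, and the other 7 lines lay within 1 log2 unit of each other. The mean was 10.81 ± 0.64 (SD, n = 9), and the span of 4.11-fold was the same without Asia, since Nancy and Phyllis were its ends. Phyllis, the lowest line in CCL22, was the fourth highest in CCL17. Without Nancy the span of CCL22 was 2.999-fold. CCL17 and CCL22 are near neighbours in the gibbon genome, with only CX3CL1 between them in the RefSeq annotation of the assembly Asia_NLE_v1. This assembly shares its name with the line Asia. Whether both come from the same animal, and whether the reads were aligned to this assembly, is not given in the sources used here. Any bearing on the levels in Asia was not tested.

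CXCL10, which attracts CXCR3-bearing T and NK cells and is induced by interferons, was high in 1 line. Asia had 5.67 log2 units, before levels of 4.40 in Khao, 4.08 in Vok, 3.96 in Melouprey, 3.87 in Nancy, 3.70 in Bobby, 3.67 in Phyllis, 3.61 in China and 3.57 in Ricky. Asia was 2.41-fold above Khao, the next line, and the other 8 lines spanned 1.78-fold in all, with an SD of 0.28. The gap below Asia was 0.60 of the whole range, past Dixon's 95% critical value for a single outlying value among 9. By that criterion 1 of the 6 genes had an outlying line, beside 10.1% of kept rows. The gaps below Asia in CCL17 and IL6 came to 0.49 of their ranges and fell just short of it. The mean of CXCL10 was 4.06 ± 0.66 (SD, n = 9), or 1.35 ppm, close to the filter of 1 ppm.

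IL6, a growth and differentiation cytokine of B cells, spanned most among the 6 genes. It reached 9.81 log2 units in Asia, and stood at 7.87 in Nancy, 7.50 in Melouprey, 7.14 in Khao, 7.05 in Vok and 7.004 in China. The lowest lines were Phyllis at 6.47, Ricky at 6.40 and Bobby at 5.84. Asia was 3.83-fold above Nancy and 6.77-fold above the median, and Bobby was 2.31-fold below the median. The mean was 7.23 ± 1.14 (SD, n = 9), and the ends lay 15.6-fold apart. With Asia left out the span was 4.08-fold, from Bobby to Nancy.

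IL10, an anti-inflammatory cytokine that supports the growth of B cells transformed by EBV, was the most even of the 6 over 9 lines. It stood at 11.08 log2 units in both China and Ricky, then at 10.72 in Asia, 10.70 in Vok and 10.55 in Melouprey. The lower lines were Phyllis at 10.15, Bobby at 10.01, Khao at 9.88 and Nancy at 9.80. Asia, the highest line in 4 of the other 5 genes, was 1.13-fold above the median here, and Nancy, the highest or among the highest 3 in CCL17, CCL22, IL6 and EBI3, was the lowest. The mean was 10.44 ± 0.50 (SD, n = 9), and the largest step between neighbouring lines was 0.40, from Melouprey to Phyllis. Without Asia the span of IL10 was again 2.44-fold, wider than the 1.78-fold of CXCL10.

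EBI3 had its high values in the same lines as CCL22, in the reverse order. Its level was 11.61 log2 units in Asia and 11.06 in Nancy. The other lines followed at 10.22 (Phyllis), 10.04 (Ricky), 9.99 (China), 9.86 (Vok), 9.83 (Bobby), 9.44 (Khao) and 9.36 (Melouprey). A step of 0.84 separated Nancy from Phyllis, and Melouprey, the third highest line in CCL22 and IL6, was the lowest in EBI3. The mean was 10.16 ± 0.73 (SD, n = 9), the span was 4.75-fold, and without Asia it was 3.24-fold. With 1 library per line, no spread within a line was available for any of the genes, so the order of neighbouring lines could not be tested.

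**Figure D2:**
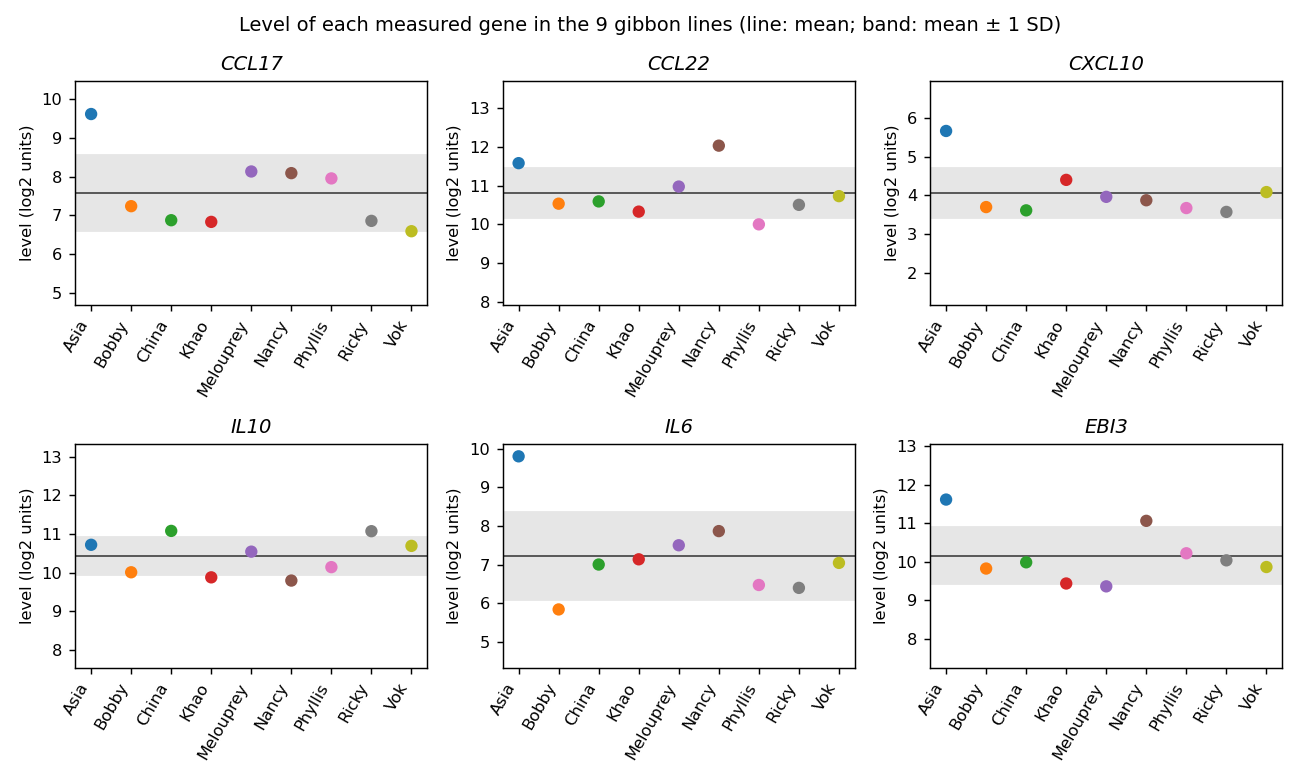
Level (log2 units) of CCL17, CCL22, CXCL10, IL10, IL6 and EBI3 in each of the 9 lines, 1 panel for each gene, every panel spanning the same number of log2 units. Points are single libraries, the horizontal line is the mean and the band is 1 SD on each side. Asia lies above the band in all panels but that of IL10, and Nancy lies above it in CCL22 and EBI3.

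Read by line, Asia was above the median in 6 of 6 genes and was the highest line in 4 (CCL17, CXCL10, IL6 and EBI3), whereas it was the highest line in 22.6% of all kept rows. It was at least 2-fold above the median in those same 4 genes, beside 3.40% of kept rows, and 1.99-fold above it in CCL22. Nancy was at least 2-fold above the median in 2 of the 6 genes (CCL22 and EBI3), beside 2.47% of kept rows. The only gene at least 2-fold below its median in any line was IL6 in Bobby, a line in which 0.278% of kept rows lay that low. Vok, Khao, China, Ricky, Phyllis and Melouprey held no gene of the 6 as far as 2-fold from its median in either direction. These counts by line were not planned beforehand. A row can lie 2-fold from its median only if it spans at least 2-fold, as all 6 genes and 26.4% of kept rows did. Both Asia and Nancy were also the lines with the widest deviations over the whole table (0.53 and 0.42 log2 units), and the part of those library-wide deviations in these levels was not tested. With Asia left out, 2 of the 6 genes (CCL22 and IL6) spanned at least 4-fold, beside 4.12% of rows, and 5 spanned at least 2-fold, beside 22.1%.

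**Figure D3:**
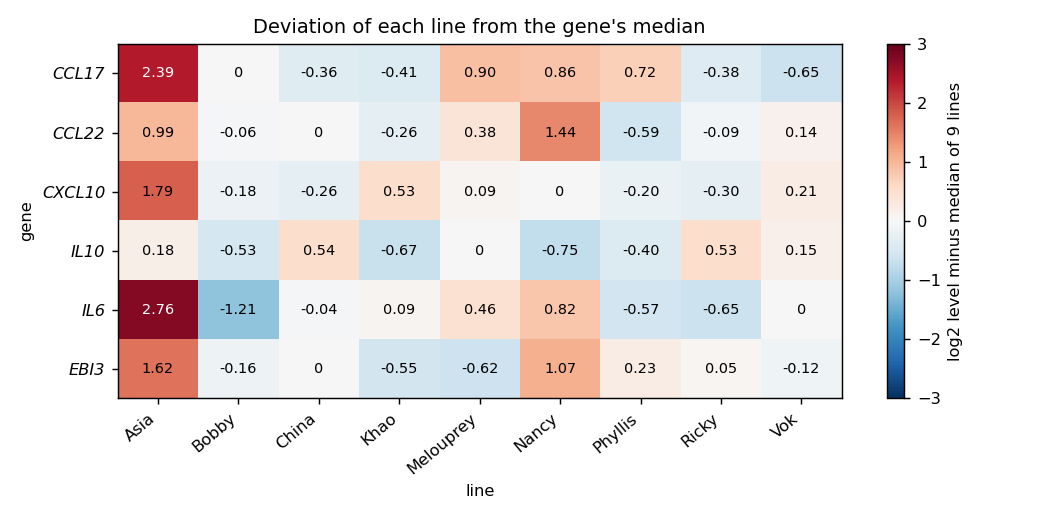
Deviation of each line (columns) from the median of the 9 lines, in log2 units, for each of the 6 genes (rows), with red above and blue below the median. The column of Asia runs from 0.18 in IL10 to 2.76 in IL6, and Nancy is at 1.44 in CCL22, 1.07 in EBI3 and -0.75 in IL10.

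Whether the genes varied together was examined over the 15 pairs of the 6 genes. The 10 pairs among CCL17, CCL22, CXCL10, IL6 and EBI3 all had a positive Pearson's r, from 0.45 to 0.88, while the 5 pairs with IL10 lay between -0.11 and 0.11. No pair passed the test across the table, in which limma was fitted to every row on the level of 1 gene with Benjamini-Hochberg adjustment over 12589 rows (0 of 15 pairs, smallest adjusted p 0.088). Those fits called 0.0159% of rows for CCL17, 0.00794% for CCL22, 0.0635% for CXCL10, 0.842% for EBI3 and 0% for IL10 and IL6, and without Asia they called no row for any of the 6. At an unadjusted exact permutation p under 0.05, 6 of the 15 pairs passed by r. The same test passed 9.15% of the pairs of 1 of the 6 genes with any other kept row, from 3.88% for IL10 to 14.9% for EBI3. By Spearman's rho 2 of the 15 pairs passed, beside 4.56% of the pairs with any other row. Without Asia 1 of the 15 passed by r, beside 4.64%, and 0 by rho, beside 3.95%.

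IL6 and CXCL10 were the most similar pair. Their r was 0.88 (n = 9, two-sided exact permutation p = 0.013; limma adjusted p = 0.088) and their rho was 0.73 (exact permutation p = 0.031). CXCL10 ranked 68 among 12589 rows ordered by r with IL6, and IL6 ranked 83 in the order for CXCL10. Without Asia and Khao, the lines farthest from the median of CXCL10, r was 0.58, and without Asia alone it was 0.47 (n = 8, exact permutation p = 0.24). The r of this pair thus rested in large part on Asia. By rank, the pair had a rho of 0.62 without Asia (n = 8, exact permutation p = 0.11), the same as IL6 and CCL22.

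IL6 and CCL22 kept a similar r without Asia, though not without Nancy and Asia together. Over all lines their r was 0.72 (n = 9, two-sided exact permutation p = 0.034; limma adjusted p = 0.36) and their rho was 0.72 (exact permutation p = 0.037). Without Asia r was 0.70 (n = 8, exact permutation p = 0.049) and rho was 0.62 (exact permutation p = 0.11), and without Nancy and Asia, the farthest lines in CCL22, it was 0.47. In this pair Nancy, Asia and Melouprey were the 3 highest lines in both genes.

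The remaining pairs with an unadjusted p under 0.05 had r above 0.65 and no such rank correlation. CCL17 and IL6 had r = 0.78 (n = 9, exact permutation p = 0.021; rho = 0.50, p = 0.18; limma adjusted p = 0.32), r = 0.20 without Asia and Melouprey, and r = 0.35 without Asia alone. CCL17 and EBI3 had r = 0.73 (n = 9, exact permutation p = 0.026; rho = 0.38, p = 0.31; limma adjusted p = 0.39), and r = 0.78 without Asia and Melouprey but 0.35 without Asia alone. Melouprey was high in CCL17 and lowest in EBI3. IL6 and EBI3 had r = 0.71 (n = 9, exact permutation p = 0.038; rho = 0.25, p = 0.52; limma adjusted p = 0.23), r = 0.21 without Asia and Bobby, and r = 0.24 without Asia alone. CCL22 and EBI3 had r = 0.69 (n = 9, exact permutation p = 0.040; rho = 0.27, p = 0.49; limma adjusted p = 0.40), r = 0.59 without Asia alone and r = -0.56 without Nancy and Asia, so that relation rested on those lines.

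**Figure D4:**
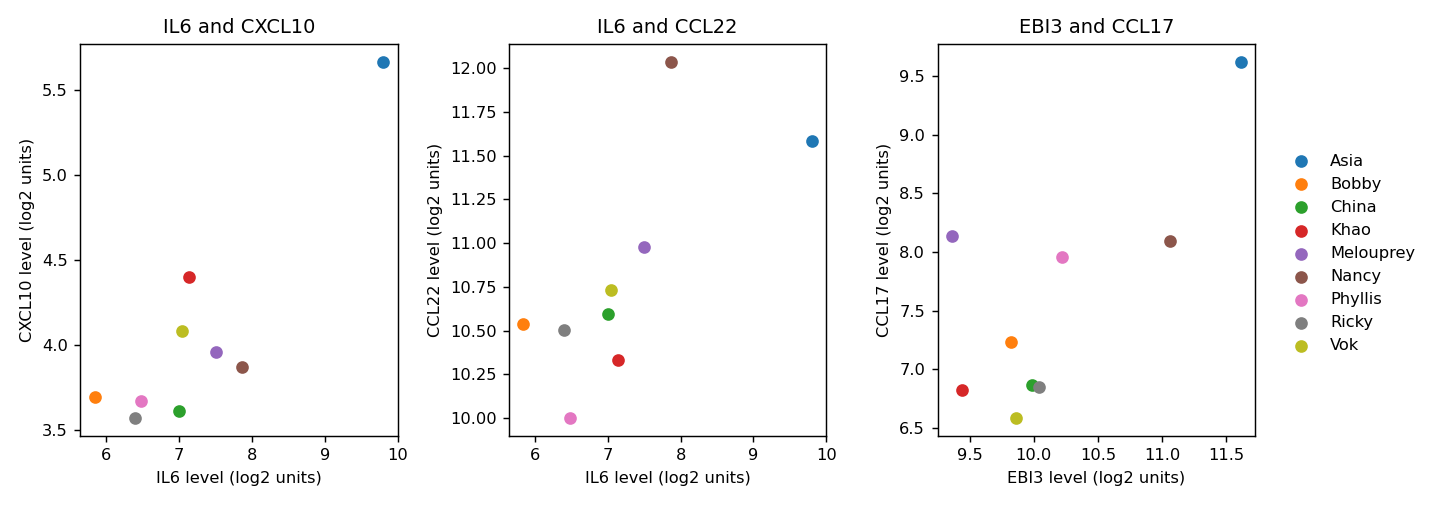
Levels (log2 units) of IL6 against CXCL10, IL6 against CCL22 and EBI3 against CCL17, each point 1 line. Asia lies at the upper right of each panel, and in the middle panel Nancy lies above it on the CCL22 axis.

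The neighbouring CCR4 ligands were not the closest pair. CCL17 and CCL22 had r = 0.59 (n = 9, two-sided exact permutation p = 0.10) and rho = 0.52 (exact permutation p = 0.16; limma adjusted p = 0.55). CCL22 ranked 1151 among the 12589 rows ordered by r with CCL17. Without Asia and Melouprey r was 0.38. With each line omitted in turn, r lay between 0.42, without Asia, and 0.76, without Phyllis.

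IL10 had correlations near 0 with the other measured genes. Its r was -0.10 with CCL17, -0.11 with CCL22, 0.02 with CXCL10, 0.11 with IL6 and 0.0044 with EBI3 (n = 9, exact permutation p from 0.77 to 0.99). These values do not show that IL10 is unrelated to them, since 9 lines leave wide room for error. Without Asia all 5 values were below 0, from -0.46 to -0.14, and 8 of the other 10 pairs remained above 0, with a range from -0.39 to 0.70 over those 10.

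**Figure D5:**
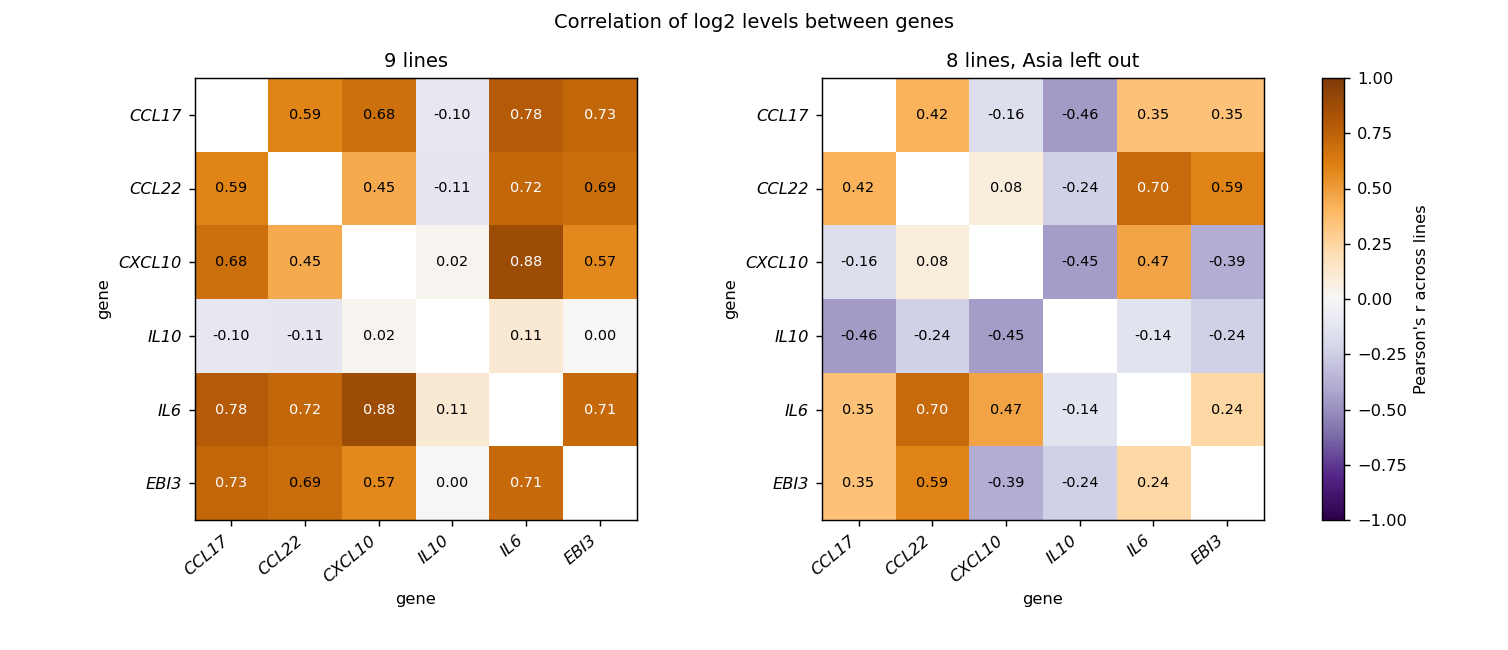
Pearson's r between the log2 levels of each pair of the 6 genes, over 9 lines (left) and over 8 lines with Asia left out (right). On the left the 10 pairs without IL10 lie between 0.45 and 0.88, and on the right they lie between -0.39 and 0.70.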

How the data were processed

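Total RNA of 9 lines was sequenced from Illumina TruSeq libraries, per the labels' protocols. DESeq2, edgeR, STAR and Trimmomatic are named, without version or role, per the submitters' processing notes. The values deposited by the authors were treated as log2 expression, while the base, the normalization, the genome build and the annotation are each not given in the sources used here. If a regularized transformation was used, differences in low rows such as CXCL10 are reduced most. The last header names, separated by a space, were split at white space, and 0 per-sample columns were left unused.

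The genes and lists were chosen with earlier results of these data known. Symbols came from the list itself, and 0 of the 15356 identifiers matched the RefSeq table of Asia_NLE_v1, so marker, receptor and promoter lists and sequences were not used here. All 6 measured genes were named. The row most like each gene was to be named only with a symbol, so only counts are given.

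The filter kept rows averaging 1 ppm or more, and no pseudocount was added. Correlations had exact permutation p-values over all orderings of the lines used, which are 362880 for 9 lines and fewer without Asia. limma 3.58.1 in R 4.3.3 (trend and robust prior) was fitted with each gene as covariate, and the larger of a pair's adjusted p-values is given, with a threshold of 0.05. Both were run on simulated normal values, limma with rows made to follow another row almost exactly. The permutation test was run with unrelated pairs of fewer values than there are lines. All simulated lines had the same spread, so a line as divergent as Asia was not covered. Power at the correlations seen here was not tested. Alternatives were another scaling, 1 added on the linear scale, other filters, linear values and each line left out.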

Additional observations from a re-analysis of the deposited data

Results flagged for a closer look

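CXCL10 was singled out because its level of 5.67 log2 units in Asia was separated by a wide gap from Khao, the next line, at 4.40. Of the 6 genes checked for an outlying line, 1 gave one, beside 10.1% of all kept rows. The criterion passes about 1 in 20 sets of normally distributed values, a lower rate than that of the kept rows. The share of kept rows is therefore the comparison for these genes. Asia also had the widest deviations over the whole table (SD of 0.53 log2 units), and the part of this in the level of CXCL10 was not tested.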

How the results depend on the processing

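Depth is unknown, so counting error, which bears most on CXCL10, could not be removed. The number of genes spanning at least 4-fold was 5 as deposited, 4 of 5 with a filter of 5 ppm (which dropped CXCL10), and 2 to 5 when lines were omitted in turn, with the 2 found without Asia. Spans of at least 2-fold were counted in 5 or 6 genes throughout. The number with an outlying line was 1 as deposited, 0 with a filter of 5 ppm, because CXCL10 was dropped, and between 0 and 3 when lines were omitted. It was 0 without Asia, 2 without Bobby (IL6 added), 2 without Vok (CCL17 added) and 3 without Nancy (IL6 and EBI3 added). The number of pairs past an adjusted p of 0.05 was 0 on the log scale under each setting run, including each line left out, and 2 on linear values: CCL17 and IL6 (r = 0.96, limma adjusted p = 0.0095) and IL6 and EBI3 (r = 0.88, adjusted p = 0.049). The cause was not tested. Genes at least 2-fold above their median in Asia, a count added after the values were seen, lay between 3 and 5. The number of rows associated with EBI3, also added, was 106 as deposited, 52 with a filter of 5 ppm, 301 with no filter and 163 on linear values, and between 0 (without Asia) and 214 (without China) when lines were omitted, with 25 without Bobby, 39 without Melouprey, 43 without Ricky and 52 without Khao. The other 5 genes had 0 to 8 such rows as deposited, at most 86 with a line omitted, at most 118 with no filter (CXCL10) and at most 296 on linear values. The range of CXCL10 was 2.01 log2 units with 1 added on the linear scale. No paired analysis was possible because the labels form a single group.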
